A study of Mus musculus with 16 samples.

Results

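The inguinal white fat (iWAT), a depot under the skin of the groin, of SOD1G93A-Lepob/+ mice was compared with that of WT mice by RNA sequencing. The comparison takes 8 of the 16 libraries of the series, the 4 labelled SOD1G93A-Lepob/+ and the 4 labelled WT, chosen by their labels alone. The mice were littermates on a C57BL/6 background, labelled as females and aged 90 days, with 4 libraries per genotype. In the methods the background is C57BL/6J. SOD1G93A-Lepob/+ mice carried the high copy human SOD1G93A transgene, which models amyotrophic lateral sclerosis, and 1 ob allele of Lep in place of a normal one. WT mice carried neither, and all came from crosses of Lepob/+ females with SOD1G93A males. The labels give 4 libraries each also for Lepob/+ and SOD1G93A, which share the estimate of spread in the tests and whose values are given only where they bear on a gene of the comparison. Since the ob allele is a point change and the transgene is of human origin, counts of mouse Sod1 or Lep do not check the genotype labels.

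White fat stores triglyceride in adipocytes and secretes leptin, the hormone that reports energy stores to the brain. Its stroma holds fibroblast-like progenitors that lay down collagen, vessels, nerves, macrophages and mast cells. In the groin of a female mouse the same pad surrounds the inguinal lymph node and the mammary ducts and lies on muscle, so RNA of those tissues can enter a dissected sample. In bulk RNA, fewer cells of a type and less RNA per cell cannot be told apart.

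Total counts per library ran from 37166103 to 43840953 in WT and from 36795376 to 45967442 in SOD1G93A-Lepob/+. Levels are given as CPM, counts relative to the size of the library, after scaling by the trimmed mean of M-values. The adipocyte markers were abundant in all 8 libraries, with a summed level of 36789 to 61570 CPM. Several libraries stood apart. WT 1 and WT 2 held lymph node RNA, with a summed T cell level of 1179 and 886 CPM against 14.3 to 39.1 CPM in the other 6. WT 3 held skeletal muscle RNA at 7331 CPM, SOD1G93A-Lepob/+ 1 had 332 CPM and the remaining 6 had 61.9 to 83.1 CPM. The library labelled SOD1G93A-Lepob/+ replicate 3 was labelled female but had 0 counts of Xist and 1756 counts of Y chromosome genes. Because of the lymph node RNA, SOD1G93A-Lepob/+ was set against all 4 WT libraries and, as a second comparison, against WT 3 and WT 4, which are low in lymph node RNA. The second comparison shares its SOD1G93A-Lepob/+ libraries and its WT 3 and WT 4 with the first, so it is not independent of it, and muscle RNA in WT 3 weighs more in it.

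No gene passed an adjusted p of 0.05 by edgeR's quasi-likelihood test in either comparison. Among 19736 genes, the share called was 0% against all WT and 0% against WT 3 and WT 4, and the smallest adjusted p was 0.951 and 0.962. An unadjusted p under 0.05 was found for 935 genes against all WT, where chance alone would give 987, with 240 higher (1.22%) and 695 lower (3.52%). Against WT 3 and WT 4 it was found for 384 genes, with 220 higher (1.11%) and 164 lower (0.831%). All 4 SOD1G93A-Lepob/+ libraries lay above all 4 WT libraries for 1.98% of genes and below them for 1.66%. The same shares against WT 3 and WT 4 alone were 7.16% and 5.87%. DESeq2 fitted on the 8 libraries called 353 genes at an adjusted p under 0.05, 34 higher (0.158%) and 319 lower (1.48%), of which 27 were on the short marker lists of lymph node stroma, T cells and B cells. Others of the 353 are also lymphocyte genes, among them variable segments of immunoglobulins and T cell receptors, so 27 is not the number of lymphoid genes. Fitted on the 6 libraries of the second comparison it called 65 genes, 34 higher (0.178%) and 31 lower (0.163%), and 16 genes were called by it in both. The median log2 fold change over all genes was 0.0070 and 0.0053. Log2 fold changes below are given with a standard error (SE), taken as their size over the square root of the test's F statistic. edgeR's adjusted p is given where a test is given, and "nominal" marks an unadjusted p under 0.05 by edgeR.

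Between all WT and SOD1G93A-Lepob/+ the functional classes differed in opposite directions. The lists of collagens and matrix, glucocorticoid and fasting response, mast cells and granulocytes, progenitors and interferon response had the highest medians. Apart from skeletal muscle, those of dendritic cells and MHC class II, de novo lipogenesis, cell cycle and ribosomal proteins had the lowest. Of the 37 lists, with 951 genes, none is independent evidence, since the members were chosen with earlier results of these libraries known. Against WT 3 and WT 4 the medians were 0.43 for glucocorticoid, 0.50 for mast cell, 0.35 for interferon and 0.28 for mitochondrially encoded genes, beside 0.40, 0.38, 0.33 and 0.32 with all WT. Those of progenitors, endothelium and nerve were 0.023, 0.029 and -0.12, and that of cell cycle was 0.

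**Figure D1:**
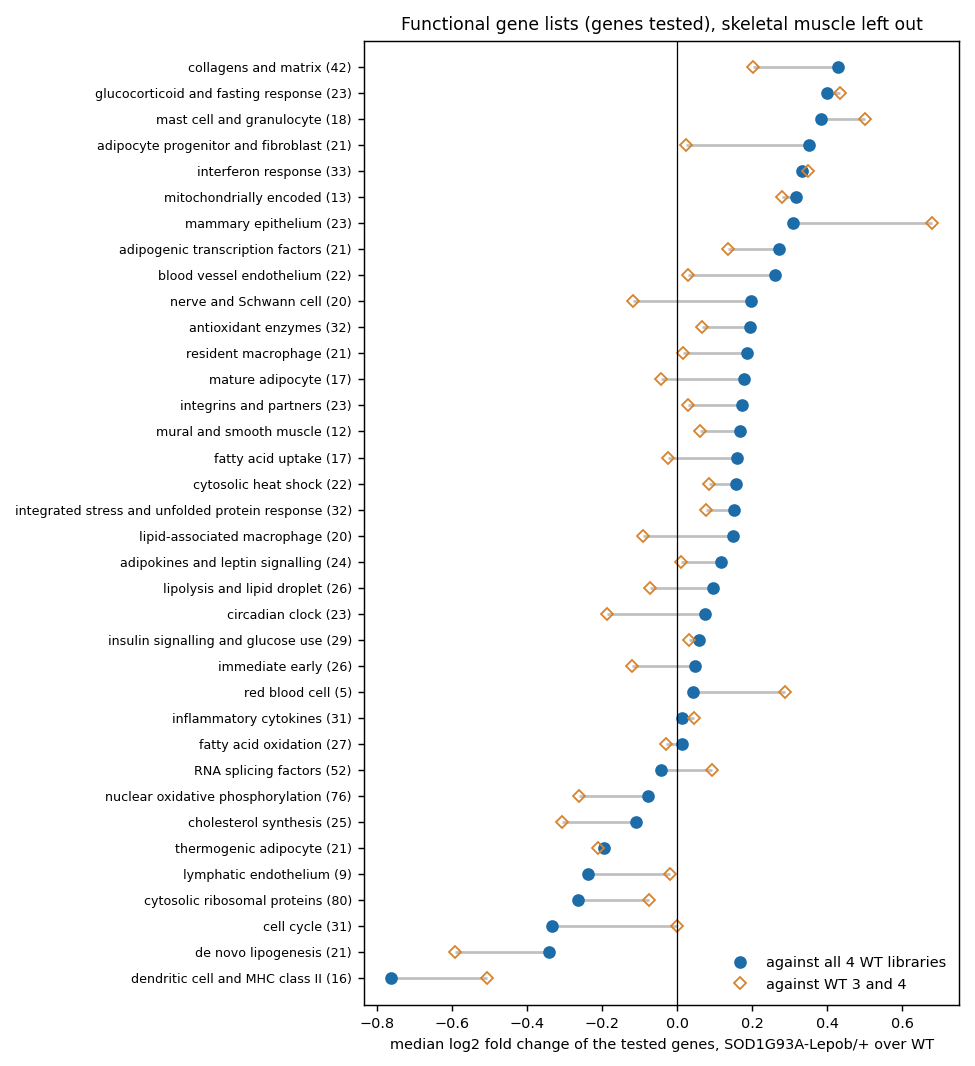
Median log2 fold change (x axis) of the tested genes of each functional list (y axis, number of genes in brackets) in SOD1G93A-Lepob/+ over WT, with filled circles for all 4 WT libraries and open diamonds for WT 3 and WT 4. Glucocorticoid (0.40 and 0.43) and interferon genes (0.33 and 0.35) lie at similar values in both, progenitor genes (0.35 and 0.023) do not, and the skeletal muscle list, at -3.66 with all WT, is left out.

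**Figure D2:**
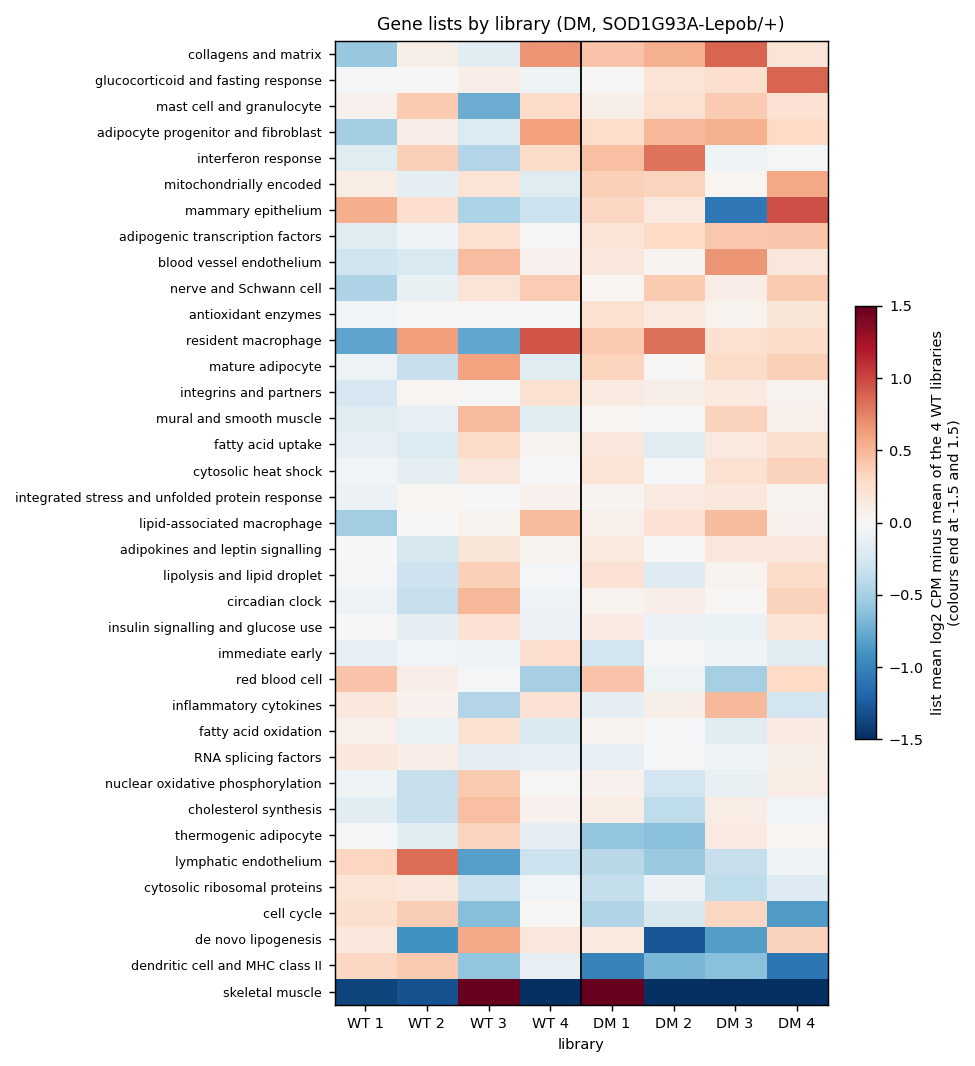
Mean log2 CPM of each list (rows) in each of the 8 libraries (columns; DM is SOD1G93A-Lepob/+) minus the mean of the 4 WT libraries, from blue (lower) through white to red (higher), with colours ending at differences of -1.5 and 1.5. Single libraries stand out, such as WT 3 and DM 1 for skeletal muscle, DM 3 for collagens and DM 4 for the glucocorticoid and mammary lists.

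A p under 0.05 and the same direction in both comparisons was found for 141 genes, 71 higher and 70 lower. The 20 genes described first are the 10 higher and the 10 lower of them with the smallest p against all WT, leaving out predicted genes and the genes of the short marker lists of lymph node stroma, T cells and B cells, which do not hold the lymphocyte genes Ighv6-3 and Lime1.

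Both chains of the oncostatin M receptor were among the higher genes. Il6st encodes gp130, the signalling chain shared by the interleukin 6 cytokine family (ENSMUSG00000021756, chromosome 13 of GRCm38 from 112464070 to 112510086, plus strand). It was at 125, 149.8, 105 and 89.5 CPM in WT 1 to 4 and at 168, 163, 268 and 218 CPM in SOD1G93A-Lepob/+ 1 to 4. The groups did not overlap, the library labelled replicate 3 was the highest, and the log2 fold change was 0.80 (SE 0.20) with all WT (nominal, adjusted p = 0.951) and 1.07 (SE 0.23) with WT 3 and WT 4 (nominal, adjusted p = 1). Il6st ranged from 175 to 248 CPM in Lepob/+ and from 158 to 221 CPM in SOD1G93A, so every mutant library of the series lay above the 4 WT libraries. Osmr, the ligand-specific chain that pairs with gp130, was at 51.3, 51.3, 55 and 58.5 CPM in WT and at 69.1, 63.6, 85.4 and 80.1 CPM in SOD1G93A-Lepob/+. Its groups did not overlap either, with a log2 fold change of 0.46 (SE 0.13, nominal, adjusted p = 0.951), and of 0.39 (SE 0.17, nominal, adjusted p = 1) in the second comparison. Osmr reached 69.2 CPM in Lepob/+, inside the SOD1G93A-Lepob/+ range.

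Among transporters, Slc3a2, the heavy chain of amino acid exchangers at the cell surface, was at 101, 114, 106 and 89.8 CPM in WT and at 121, 147, 129.7 and 127 CPM in SOD1G93A-Lepob/+. All SOD1G93A-Lepob/+ libraries were above all WT libraries, with a log2 fold change of 0.36 (SE 0.10). Slc4a11, a membrane transporter of the bicarbonate transporter family, was at 6.19, 7.37, 9.12 and 6.4 CPM in WT and at 14.6, 11.8, 17.7 and 11.3 CPM in SOD1G93A-Lepob/+. Its log2 fold change was 0.93 (SE 0.25), again without overlap, and DESeq2 on the 8 libraries gave it an adjusted p of 0.00841. On the 6 libraries of the second comparison DESeq2 did not call Slc4a11 (adjusted p = 0.381). Arl13b, a small GTPase of the primary cilium, was at 12.6, 13.2, 11.2 and 13.9 CPM in WT and at 15, 17.5, 18 and 17.6 CPM in SOD1G93A-Lepob/+. The gap between the groups was narrow and the log2 fold change 0.42 (SE 0.12).

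Col12a1, a collagen that sits on the surface of collagen fibrils, was at 9.97, 7.15, 5.11 and 15.7 CPM in WT and at 16.2, 18.8, 31.7 and 19 CPM in SOD1G93A-Lepob/+. The lowest SOD1G93A-Lepob/+ library lay just above the highest WT library, WT 4, and the log2 fold change was 1.18 (SE 0.35), or 0.93 without replicate 3. Btn1a1, butyrophilin of milk fat globules and an epithelial gene of the mammary gland, was at 11.5, 11.5, 4.05 and 4.47 CPM in WT and at 24.9, 15.6, 11.3 and 32.1 CPM in SOD1G93A-Lepob/+. The groups overlapped, since replicate 3 was below WT 1 and WT 2, and the log2 fold change was 1.41 (SE 0.41) with all WT and 2.30 (SE 0.45) with WT 3 and WT 4 (DESeq2 adjusted p on those 6 libraries, 0.000159). On the 8 libraries DESeq2 did not call Btn1a1 (adjusted p = 0.103). The summed mammary level was 1913 and 1628 CPM in WT 1 and WT 2, 920 and 1212 CPM in WT 3 and WT 4, and 1750, 1730, 819 and 2886 CPM in SOD1G93A-Lepob/+, and the part of this in Btn1a1 was not tested. Tceal9, an X-linked gene of the TCEAL family, was at 38.3, 39.2, 41.7 and 42.9 CPM in WT and at 51.2, 52.6, 46.8 and 75.9 CPM in SOD1G93A-Lepob/+, without overlap.

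Of the lower genes, Fbxo34 had the smallest p of the comparison. It encodes an F-box protein, a substrate-binding part of ubiquitin ligases (ENSMUSG00000037536, chromosome 14 of GRCm38 from 47450421 to 47531962, plus strand). Fbxo34 was at 19.4, 20.3, 19.4 and 20.2 CPM in WT and at 3.17, 5.55, 10.7 and 2.75 CPM in SOD1G93A-Lepob/+. The WT libraries lay close together, all SOD1G93A-Lepob/+ libraries were below them, and replicate 3 was the highest of these. The log2 fold change was -1.84 (SE 0.33, nominal, adjusted p = 0.951), and without replicate 3 it was -2.37 and passed an adjusted p of 0.05 by edgeR (0.00164 with all WT, 0.0221 with WT 3 and WT 4). In the 8 libraries of Lepob/+ and SOD1G93A it was at 15.8 to 21.4 CPM. In GENCODE M21 its gene model overlaps Gm48986 on the same strand and Gm35166 on the other, and Arl13b, Col12a1, Wdr66 and Pcmtd1 also overlap other gene models, so that without a known strand setting the counts of these 5 genes are uncertain.

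Zfp78, a zinc finger protein, was at 2.06, 2.85, 3.0 and 3.07 CPM in WT and at 1.64, 1.4, 1.11 and 1.97 CPM in SOD1G93A-Lepob/+, with a log2 fold change of -0.84 (SE 0.22). Wdr66, a WD repeat protein known from cilia and flagella, was at 5.18, 6.21, 6.82 and 6.64 CPM in WT and at 4.23, 4.92, 3.45 and 3.79 CPM in SOD1G93A-Lepob/+, with a log2 fold change of -0.60 (SE 0.16). Neither gene overlapped between the groups. Lime1, an adaptor of lymphocyte receptor signalling, was at 7.47, 7.28, 11.5 and 9.23 CPM in WT and at 3.19, 5.07, 3.27 and 5.0 CPM in SOD1G93A-Lepob/+, with a log2 fold change of -1.10 (SE 0.31) and no overlap. Its highest values were in WT 3 and WT 4, the WT libraries low in lymph node RNA, and its gene model overlaps that of Zgpat on the same strand, so its counts are uncertain.

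Some of the lower genes rested on few counts or on single libraries. Nrn1l, of the neuritin family and overlapping Edc4, was at 0.248, 0.501, 0 and 0.185 CPM in WT and at 0 in SOD1G93A-Lepob/+, which is at least 12.9-fold lower when 3 counts over the group are taken as the floor. Ighv6-3, an immunoglobulin variable segment, was at 0.33, 1.82, 0.207 and 1.48 CPM in WT and at 0 in all SOD1G93A-Lepob/+ libraries, at least 53.2-fold lower. Both floors cover counting error only. Pcdhga1, a protocadherin of the gamma cluster, was at 1.16, 1.78, 1.16 and 41.5 CPM in WT and at 0.952, 0.949, 1.25 and 0.815 CPM in SOD1G93A-Lepob/+, so 1 library, WT 4, made the difference. Ypel5, a small conserved nuclear protein, was at 44.7, 82.9, 108 and 34.7 CPM in WT and at 37, 35.5, 34.2 and 36.2 CPM in SOD1G93A-Lepob/+. WT 2 and WT 3 were far above the rest, and without WT 3 the second comparison gave a log2 fold change of 0.040. Pcmtd1, a methyltransferase-like protein, was at 21.4, 79, 89.5 and 73.1 CPM in WT and at 19.8, 25.8, 27.5 and 27.1 CPM in SOD1G93A-Lepob/+, so that WT 1 lay with the mutant libraries.

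**Figure D3:**
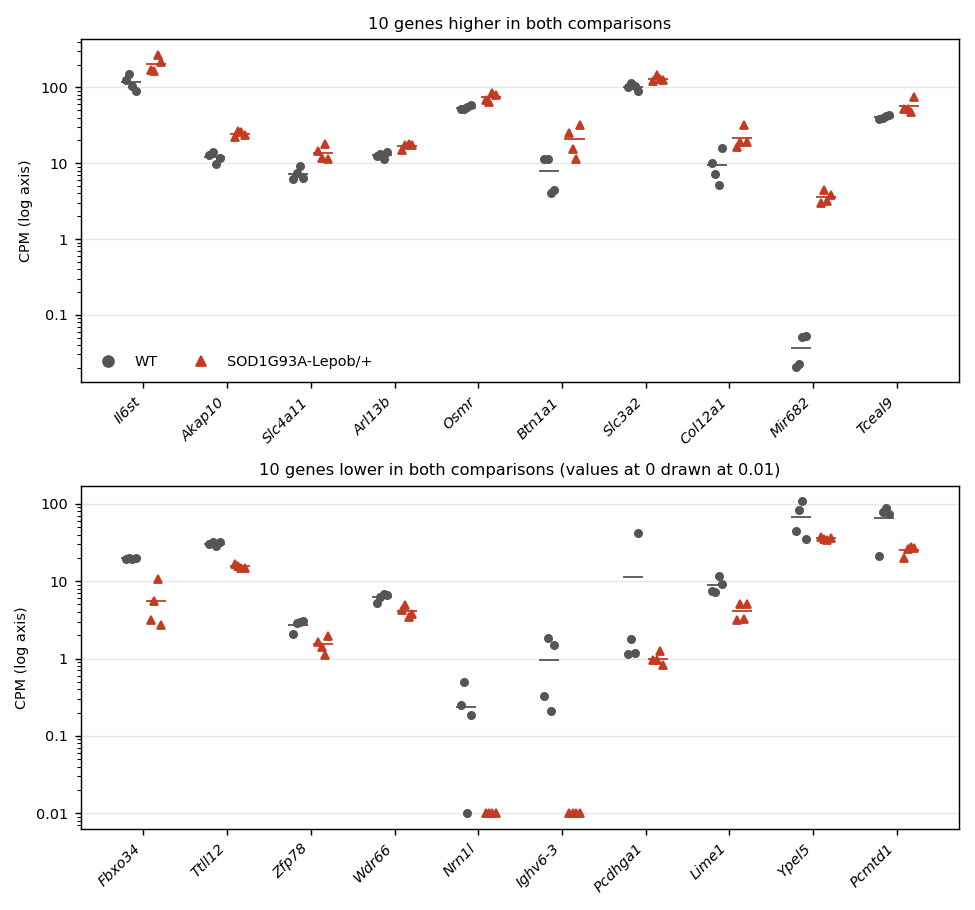
CPM (y axis, log scale) of the 10 higher and 10 lower genes in the 4 WT libraries (grey circles) and the 4 SOD1G93A-Lepob/+ libraries (red triangles), with bars at the group means and values of 0 drawn at 0.01. Fbxo34, Ttll12, Akap10 and Mir682 are separated most clearly, while Pcdhga1 is carried by a single WT library at 41.5 CPM.

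Several of these genes had values that fell into separate levels in the other genotypes too, so their place among the 20 is described here together with all 16 libraries. Mir682 is an annotated microRNA gene on chromosome 13 (75645046 to 75645141, plus strand, GRCm38). Its sequences are shown because its log2 fold change, 6.54 (SE 1.93), was the largest of the 10 higher genes and because the hairpin lies inside another transcribed copy. Both are from RefSeq (GRCm38.p6), and the capitals in the mature form mark the seed, bases 2 to 8.
mmu-miR-682: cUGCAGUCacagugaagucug
Mir682 hairpin: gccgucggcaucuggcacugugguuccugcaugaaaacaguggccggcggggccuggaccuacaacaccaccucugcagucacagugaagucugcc
The hairpin is identical over all 96 bases to the processed pseudogene Gm4149, whose gene model (75644896 to 75645171, plus strand) contains it, and over 95 of 96 bases to a transcript of the ribosomal protein gene Rpl37a. Counts of Mir682 in these libraries of long RNA are therefore uncertain and say nothing of the mature microRNA. Mir682 was at 0.0206, 0.0228, 0.0517 and 0.0529 CPM in WT and at 3.03, 4.45, 3.2 and 3.76 CPM in SOD1G93A-Lepob/+. It was also at 3.02 and 4.01 CPM in Lepob/+ 1 and 3 and at 4.92 CPM in SOD1G93A 1, and at 0.0173 to 0.0666 CPM in the 5 remaining libraries of those genotypes. Gm4149 went the other way, at 12.9, 12.4, 8.52 and 11 CPM in WT and at 5.56, 6.15, 4.83 and 4.92 CPM in SOD1G93A-Lepob/+. Summed, the pair was at 12.9, 12.4, 8.57 and 11 CPM in WT and at 8.59, 10.6, 8.03 and 8.68 CPM in SOD1G93A-Lepob/+. The sums of the groups overlapped, while neither gene alone did.

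Ptp4a1, a protein tyrosine phosphatase, gave a second such case. It was chosen after its values were seen, because edgeR called it without replicate 3. The table holds it as a pair of overlapping gene models. The first (ENSMUSG00000026064) was at 37, 42.1, 46.1 and 69.6 CPM in WT and at 6.82, 8.32, 56.1 and 11.1 CPM in SOD1G93A-Lepob/+. The second (ENSMUSG00000117310) was at 30.9, 17.3, 72.2 and 19.6 CPM in WT and at 86.4, 70.3, 42.7 and 109 CPM in SOD1G93A-Lepob/+. In SOD1G93A-Lepob/+ 1, 2 and 4 the first lay below every WT library and the second above WT 1, 2 and 4. Their sum was at 67.9, 59.4, 118 and 89.2 CPM in WT and at 93.2, 78.6, 98.8 and 120.4 CPM in SOD1G93A-Lepob/+, with overlapping groups. The 22 protocadherin gamma genes, which share their last exons, summed to 187 to 251 CPM in WT and to 205 to 260 CPM in SOD1G93A-Lepob/+.

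Akap10, an anchoring protein of protein kinase A, and Ttll12, of the tubulin tyrosine ligase-like family, had separated values although no other gene model overlaps them in GENCODE M21. Akap10 was at 12.7, 14.2, 9.89 and 11.7 CPM in WT and at 22.3, 26.4, 26 and 23.8 CPM in SOD1G93A-Lepob/+, with a log2 fold change of 1.02 (SE 0.26). It was as high in Lepob/+ 1 and 2 (25.7 and 24.6 CPM) and in SOD1G93A 1 and 4 (25.9 and 24.8 CPM), while their 4 other libraries had 11.1 to 16.3 CPM. Ttll12 was at 29.96, 32, 28.2 and 32.6 CPM in WT and at 16.9, 15.7, 15 and 14.9 CPM in SOD1G93A-Lepob/+, with a log2 fold change of -0.97 (SE 0.21). Lepob/+ 1 and 2 had 15.6 and 14.2 CPM of Ttll12 and the remaining 6 libraries 29.0 to 31.7 CPM. On the 8 libraries alone, edgeR gave adjusted p = 0.000988 for Mir682 and 0.0492 for Ttll12, and DESeq2 gave 1.19e-07 for Akap10, which edgeR did not call. In the edgeR fit over all 16 libraries none of the 3 was called, the smallest adjusted p of any gene being 0.951. Across the series, 68 of 13919 genes with a median over 2 CPM had at least 1 library below the median by more than 20-fold, with 5 to 16 such genes per library. Of the 67 with coordinates, 55 (82.1%) overlapped another gene model, against 54.5% of all genes at that level. The cause was not tested.

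**Figure D4:**
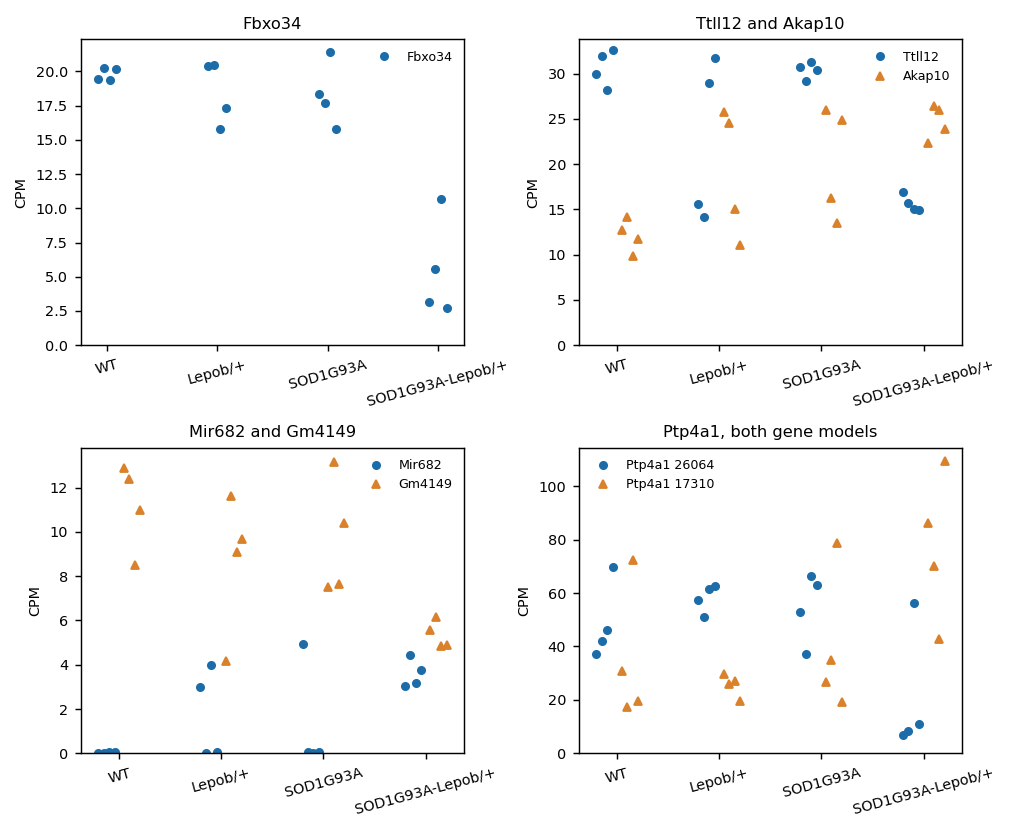
CPM (y axis) in all 16 libraries by genotype (x axis), each point a library, with a panel each for Fbxo34, for Ttll12 and Akap10, for Mir682 and Gm4149, and for both gene models of Ptp4a1. Fbxo34 is low in the 4 SOD1G93A-Lepob/+ libraries only, Ttll12, Akap10 and Mir682 also take the SOD1G93A-Lepob/+ level in some libraries of the single mutants, and in SOD1G93A-Lepob/+ 1, 2 and 4 the pair of Ptp4a1 gene models lie on opposite sides of most WT values.

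Adipocyte markers were mostly higher against all WT and mostly lower, by little, against WT 3 and WT 4. Of 17 markers, 12 were higher against all WT, the median log2 fold change being 0.18, and 6 against WT 3 and WT 4 with a median of -0.043; none had a p under 0.05. Leaving out WT 3, which had the highest adipocyte level (61570 CPM summed), gave a median of 0.40, and leaving out replicate 3 gave 0.12. Plin4, a coat protein of lipid droplets, was at 2264, 1791, 3057 and 1632 CPM in WT and at 3407, 2741, 3625 and 2752 CPM in SOD1G93A-Lepob/+, with a log2 fold change of 0.52 (SE 0.30). Fabp4, the fatty acid carrier of adipocytes, was at 8139, 7869.6, 12009 and 7154 CPM in WT and at 11899, 11336, 9649 and 12714 CPM in SOD1G93A-Lepob/+, with a log2 fold change of 0.37 (SE 0.28). In both genes the groups overlapped through WT 3.

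Adipokines and leptin signalling genes had 16 of 24 higher with a median of 0.12 against all WT and 12 with a median of 0.0086 against WT 3 and WT 4. Lep, which encodes leptin, was at 208, 202, 681 and 633 CPM in WT and at 691, 549, 1843 and 578 CPM in SOD1G93A-Lepob/+. The 2 WT libraries with lymph node RNA were the lowest, replicate 3 was the highest, and the other SOD1G93A-Lepob/+ libraries lay with WT 3 and WT 4. Its log2 fold change was 1.08 (SE 0.59) with all WT (adjusted p = 0.951), 0.49 without replicate 3, 0.48 (SE 0.67) with WT 3 and WT 4, and -0.12 in that comparison without replicate 3. The ob allele still gives RNA, so these counts are not the amount of normal leptin. Lepr, the leptin receptor, was at 7.16, 9.58, 2.66 and 3.65 CPM in WT and at 5.09, 6.42, 5.42 and 5.87 CPM in SOD1G93A-Lepob/+, with a log2 fold change of -0.017 (SE 0.43) with all WT and 0.85 (SE 0.47) with WT 3 and WT 4, so its direction depended on the WT libraries.

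Against all WT, fat handling genes split by step. De novo lipogenesis, which makes fatty acids from acetyl-CoA, had 3 of 21 genes higher against all WT and a median of -0.34, and 3 higher against WT 3 and WT 4 with a median of -0.59. The first of these medians was -0.20 without replicate 3, -0.21 without WT 3 and 0.0021, with 11 of 21 higher, without both. Only Scd2, a desaturase, had a p under 0.05, in the second comparison, with a log2 fold change of -0.95 (SE 0.40, nominal, adjusted p = 1). The share of all genes lower with such a p was 0.831%. Acaca, acetyl-CoA carboxylase, was at 1348, 504, 1939 and 1292 CPM in WT and at 1103, 241, 367 and 1434 CPM in SOD1G93A-Lepob/+. Scd2 and the next pair of genes were chosen after their values were seen. Fasn, fatty acid synthase, was at 13317, 3280.1, 16949 and 9676 CPM in WT and at 11681, 1288, 3484 and 12416 CPM in SOD1G93A-Lepob/+. Scd1, the desaturase that makes oleate, was at 28186, 20915, 45989 and 25708 CPM in WT and at 32513, 17023, 19374 and 35746 CPM in SOD1G93A-Lepob/+. In these enzymes SOD1G93A-Lepob/+ 2 and 3 were low while 1 and 4 lay within the WT range, and WT 2 was low as well. Fads2, a desaturase of polyunsaturated fatty acids, was at 16.1, 13, 13.6 and 18 CPM in WT and at 14.2, 12.5, 11.7 and 12.9 CPM in SOD1G93A-Lepob/+, with a log2 fold change of -0.24 (SE 0.17).

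Fatty acid uptake genes and their regulators had 11 of 17 higher, with a median of 0.16 and, against WT 3 and WT 4, -0.026. Without replicate 3 these were 0.10 and 0.024. Angptl4, which blocks lipoprotein lipase in fasting and is induced by fatty acids and glucocorticoids, was at 288, 347, 334 and 273 CPM in WT and at 490.1, 481, 516 and 400.2 CPM in SOD1G93A-Lepob/+ (ENSMUSG00000002289, chromosome 17 of GRCm38 from 33773750 to 33781830, minus strand). All SOD1G93A-Lepob/+ libraries were above all WT libraries, and the log2 fold change was 0.60 (SE 0.24, nominal, adjusted p = 0.951; DESeq2 adjusted p on the 8 libraries, 0.00764). Against WT 3 and WT 4 it was 0.64 (SE 0.32), and DESeq2 on the 6 libraries of that comparison did not call Angptl4 (adjusted p = 0.122). Lepob/+ libraries reached 446 CPM of Angptl4. Angptl8, which restrains lipoprotein lipase after feeding, was at 10.2, 4.6, 25.9 and 22.2 CPM in WT and at 12.3, 3.85, 7.1 and 13.4 CPM in SOD1G93A-Lepob/+, below WT 3 and WT 4 in every library, with a log2 fold change of -1.39 (SE 0.48, nominal, adjusted p = 1). Cd36, a fatty acid translocase, was at 1466, 1469, 2406 and 1636 CPM in WT and at 2344, 1998, 2596 and 2236 CPM in SOD1G93A-Lepob/+. Lipolysis and lipid droplet genes had 19 of 26 higher and a median of 0.095 (0.20 without WT 3). Against WT 3 and WT 4, 10 of 26 were higher and the median was -0.074. With the lymph node stroma level as a covariate it was -0.059. Fatty acid oxidation had 14 of 27 higher with a median of 0.013 (0.17 without WT 3). Against WT 3 and WT 4 it had 13 higher with a median of -0.031. Neither list held a gene with a p under 0.05 in the reported comparisons.

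Cholesterol synthesis genes were lower, 7 of 25 being higher, with a median of -0.11 and of -0.31 against WT 3 and WT 4. In the second comparison 4 of 25 were lower with a p under 0.05, against 0.831% of all genes. Among these 4 were Dhcr7, Cyp51 and Fdps, of which Fdps was chosen after its values were seen. Dhcr7, an enzyme of the final steps to cholesterol, was at 22.4, 16.2, 35.7 and 27.2 CPM in WT and at 22.6, 13.9, 21.9 and 20.5 CPM in SOD1G93A-Lepob/+. Cyp51, lanosterol demethylase, was at 23.9, 23.9, 37.7 and 25.7 CPM in WT and at 25.3, 21.1, 25.4 and 23.7 CPM in SOD1G93A-Lepob/+. For both, WT 3 was the highest library and the groups overlapped only through WT 1 and WT 2. Mvd, an earlier enzyme of the mevalonate part, was at 11.8, 10.04, 14.1 and 11.3 CPM in WT and at 9.14, 6.97, 7.98 and 11 CPM in SOD1G93A-Lepob/+, with a log2 fold change of -0.42 (SE 0.20). Without WT 3 the list's median against all WT was 0.020. Insulin signalling and glucose use had 16 of 29 higher and a median of 0.059. Pdk1, a kinase that restrains pyruvate dehydrogenase, was its only gene with a p under 0.05, in the lower direction, against 3.52% of all genes. It was at 124, 82.1, 88 and 60.9 CPM in WT and 61.3, 47.3, 36 and 77.1 CPM in SOD1G93A-Lepob/+.

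The list of adipogenic transcription factors, which holds activators and repressors, had 19 of 21 higher with a median of 0.27. The activators (14 of 15 higher) and the repressors (5 of 6) each had a median of 0.27. Its largest log2 fold change was that of Dlk1 (1.16), an inhibitor described below. Against WT 3 and WT 4, 16 of 21 were higher with a median of 0.13. With the lymph node stroma level as a covariate, 14 of 21 were higher with a median of 0.11. Tle3, a co-regulator that favours white fat genes, was at 70.4, 78.2, 60.1 and 56.2 CPM in WT and at 91.3, 75.1, 79.4 and 72.8 CPM in SOD1G93A-Lepob/+, with a log2 fold change of 0.45 (SE 0.19) against WT 3 and WT 4 (nominal, adjusted p = 1). Thermogenic genes were higher in 8 of 21, with medians of -0.19 and -0.21. Without WT 3 the first median was 0.010, with 11 of 21 higher. Ucp1, the uncoupling protein of brown and beige fat, was at 2.56, 1.48, 1.94 and 3.25 CPM in WT and at 0.819, 0.175, 27.9 and 3.65 CPM in SOD1G93A-Lepob/+. Replicate 3 alone was high, and the log2 fold change went from 1.82 (SE 1.76) to -0.58 without it. Adora2a, an adenosine receptor that activates brown fat, was at 27.9, 26.7, 26.7 and 17.1 CPM in WT and at 15.5, 15.9, 20.7 and 17.7 CPM in SOD1G93A-Lepob/+, with a log2 fold change of -0.50 (SE 0.21, nominal, adjusted p = 0.951); WT 4 lay with the SOD1G93A-Lepob/+ libraries.

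Genes of the stroma were higher in SOD1G93A-Lepob/+ than in all WT. Every one of the 42 collagen and matrix genes was higher, by a median of 0.43 on the log2 scale and a range from 0.083 to 1.18, beside a median of 0.0070 over all genes. Of them 1, Col12a1, had a p under 0.05, against 1.22% of all genes in that direction. Against WT 3 and WT 4 they were higher in 37 of 42, with a median of 0.20. Without replicate 3, which had the highest collagen level, the medians were 0.26 and 0.043. With the lymph node stroma level as a covariate, 34 of 42 were higher and the median was 0.10. The mean log2 CPM of the list was at 7.07, 7.73, 7.48 and 8.31 in WT and at 8.07, 8.19, 8.52 and 7.84 in SOD1G93A-Lepob/+, and WT 4 lay among the SOD1G93A-Lepob/+ libraries. Timp3, an inhibitor of matrix proteases, was at 382, 384, 519 and 675 CPM in WT and at 720.3, 619.9, 844 and 764 CPM in SOD1G93A-Lepob/+, with a log2 fold change of 0.59 (SE 0.28). The fibrillar collagen genes Col1a1 and Col3a1 were chosen after their values were seen. Col1a1 was at 909.8, 1751, 1431 and 2812 CPM in WT and at 2141, 2255, 3245 and 1643 CPM in SOD1G93A-Lepob/+. Col3a1 was at 2712, 5255, 3578 and 6721 CPM in WT and at 6383, 6882, 9032 and 4489.9 CPM in SOD1G93A-Lepob/+. Both overlapped between the groups.

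Progenitor and fibroblast genes had 18 of 21 higher with a median of 0.35 against all WT and 12 with a median of 0.023 against WT 3 and WT 4. The first median was 0.22 without WT 3, and the second -0.061 without replicate 3. Ly6a, the Sca1 antigen of progenitors, was at 99.1, 218, 118 and 248 CPM in WT and at 205, 378, 326 and 199.7 CPM in SOD1G93A-Lepob/+. Dlk1, an inhibitor of adipocyte differentiation, was at 0.371, 1.32, 3.02 and 2.41 CPM in WT and at 2.9, 2.42, 5.62 and 4.94 CPM in SOD1G93A-Lepob/+, with a log2 fold change of 1.16 (SE 0.60). Integrins and their partners had 19 of 23 higher with a median of 0.17 (0.11 without replicate 3). Ptk2, focal adhesion kinase, was at 44.5, 45.5, 49.8 and 48.8 CPM in WT and at 56.7, 53.7, 63.6 and 53.6 CPM in SOD1G93A-Lepob/+ without overlap. Itgav, the alpha V integrin, was at 5.59, 35.2, 27 and 25.5 CPM in WT and at 34.7, 4.72, 3.11 and 4.49 CPM in SOD1G93A-Lepob/+, so that SOD1G93A-Lepob/+ 1 lay with WT 2 to 4 and WT 1 with the other mutant libraries.

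Genes that respond to glucocorticoids and fasting had 21 of 23 higher, with a median of 0.40, and 3, Errfi1, Mt2 and Angptl4, with a p under 0.05 against 1.22% of all genes in that direction. The second comparison gave 18 of 23 and 0.43, with no p under 0.05. With the lymph node stroma level as a covariate, 17 of 23 were higher, the median was 0.26 and none had a p under 0.05. The mean log2 CPM of the list was at 5.91, 5.93, 6.04 and 5.88 in WT and at 5.96, 6.14, 6.19 and 6.82 in SOD1G93A-Lepob/+. SOD1G93A-Lepob/+ 1 lay inside the WT range and SOD1G93A-Lepob/+ 4 was far above the rest. Errfi1, a feedback inhibitor of epidermal growth factor receptors, was at 49.3, 43.3, 51.3 and 51.9 CPM in WT and at 67.2, 74.2, 96.3 and 229 CPM in SOD1G93A-Lepob/+. Its log2 fold change was 1.25 (SE 0.43, nominal, adjusted p = 0.951), without overlap and with SOD1G93A-Lepob/+ 4 the highest. Mt2, a metal-binding metallothionein, was at 23.5, 33.7, 23 and 22.8 CPM in WT and at 26.7, 50.4, 24.9 and 77 CPM in SOD1G93A-Lepob/+, with a log2 fold change of 0.80 (SE 0.37) and an overlap at WT 2. Txnip, which restrains glucose uptake and thioredoxin, was at 848, 1019, 935 and 847 CPM in WT and at 1027, 1205, 1159 and 1421 CPM in SOD1G93A-Lepob/+, without overlap. The next pair of genes was chosen after the values were seen. Fkbp5, which binds the glucocorticoid receptor complex with Hsp90, was at 31.4, 32, 21 and 23.1 CPM in WT and at 30.4, 27.1, 29.9 and 76.7 CPM in SOD1G93A-Lepob/+, high only in replicate 4. Hsd11b1, the enzyme that makes active glucocorticoid inside cells, went the other way, at 39.1, 32.6, 46.4 and 60.8 CPM in WT and at 23.9, 18.3, 22 and 31.4 CPM in SOD1G93A-Lepob/+ with no overlap and a log2 fold change of -0.90 (SE 0.46). DESeq2 called Hsd11b1 lower in both comparisons (adjusted p = 0.0235 on the 8 libraries and 0.00914 on the 6). Of this list it called only Angptl4 higher, and that on the 8 libraries alone. Ddit4, an inhibitor of mTORC1 induced by stress and glucocorticoid, was at 40.7, 29.5, 38 and 19.4 CPM in WT and at 17.3, 30.5, 60.7 and 88.8 CPM in SOD1G93A-Lepob/+, with overlapping groups. Clock genes had 12 of 23 higher and medians of 0.074 and -0.19.

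Immediate early genes, which are switched on within minutes of a stimulus, were mixed as a list, with 14 of 26 higher and a median of 0.046. None was above all WT libraries without overlap, and 4, Ier2, Btg2, Egr3 and Nr4a1 (the last pair chosen after the values were seen), were below, against 1.66% of all genes. Against WT 3 and WT 4, 11 of 26 were higher with a median of -0.12. In that comparison 3 were lower with a p under 0.05, against 0.831% of all genes. Without overlap, 7 lay below WT 3 and WT 4 and 1 above, against 5.87% and 7.16% of all genes. Egr1, a zinc finger transcription factor of growth signals, was at 63.4, 59.3, 98 and 145 CPM in WT and at 66.4, 54.4, 39.3 and 45.6 CPM in SOD1G93A-Lepob/+. The groups overlapped at SOD1G93A-Lepob/+ 1, and the log2 fold change was -0.83 (SE 0.29, nominal, adjusted p = 0.951) with all WT and -1.24 (SE 0.28) with WT 3 and WT 4 (nominal, adjusted p = 1; DESeq2 adjusted p on the 6 libraries, 0.00778). DESeq2 did not call Egr1 on the 8 libraries. Ier2, another early response gene, was at 45.6, 45.7, 39.7 and 57.8 CPM in WT and at 37.4, 36.1, 29.9 and 31.6 CPM in SOD1G93A-Lepob/+, with a log2 fold change of -0.48 (SE 0.20) and no overlap. Btg2, an antiproliferative early gene, was at 95.9, 97.3, 82 and 71.3 CPM in WT and at 48.4, 62.5, 71 and 64 CPM in SOD1G93A-Lepob/+, just without overlap. Fos, a subunit of AP-1 chosen after its values were seen, was at 21.9, 21.1, 21.7 and 109 CPM in WT and at 24, 30.5, 18.3 and 22.6 CPM in SOD1G93A-Lepob/+, so that WT 4 alone was high. Ccn2, a matricellular growth factor also induced by TGF-beta and stretch, was higher, at 14, 14.2, 22 and 16 CPM in WT and 16.8, 22.1, 33.2 and 49.2 CPM in SOD1G93A-Lepob/+, with a log2 fold change of 0.87 (SE 0.41, nominal, adjusted p = 0.951).

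Stress genes were higher by small amounts. Antioxidant enzymes had 26 of 32 higher and a median of 0.19, or 0.066 with WT 3 and WT 4. Gsr, glutathione reductase, was at 59.8, 55.6, 53.3 and 47.4 CPM in WT and at 81.1, 70.1, 49.95 and 116 CPM in SOD1G93A-Lepob/+, with a log2 fold change of 0.55 (SE 0.20, nominal, adjusted p = 0.951); replicate 3 was inside the WT range and the other 3 above it. Slc7a11, the cystine carrier that pairs with Slc3a2, was at 7.7, 7.4, 0.181 and 0.132 CPM in WT and at 0.0443, 0.25, 0.635 and 0.197 CPM in SOD1G93A-Lepob/+, so only WT 1 and WT 2, which held lymph node RNA, were high. Cytosolic heat shock genes had 19 of 22 higher with a median of 0.16 (0.25 without WT 3), and 3, Hspa1a, St13 and Dnaja4 (the last chosen after its values were seen), lay above all WT without overlap, against 1.98% of all genes. Hspa1a, the inducible Hsp70, was at 19.6, 18.5, 11.7 and 18.5 CPM in WT and at 21.7, 23.9, 21 and 31 CPM in SOD1G93A-Lepob/+, with a log2 fold change of 0.51 (SE 0.21, nominal, adjusted p = 0.951) with all WT and, with WT 3 and WT 4, 0.69 (SE 0.27, nominal, adjusted p = 1). Dnaja1, an Hsp40 partner of Hsp70, was at 108, 109.8, 116 and 121 CPM in WT and at 134, 116, 141 and 156 CPM in SOD1G93A-Lepob/+, and St13, a cofactor that links Hsp70 and Hsp90, at 187, 205, 246 and 209.7 CPM in WT and at 266, 248, 262 and 268 CPM in SOD1G93A-Lepob/+. For St13 the groups did not overlap. The integrated stress and unfolded protein response had 25 of 32 higher and 0.15. Dnajc3, an inhibitor of PERK, was at 117, 122, 97.6 and 122 CPM in WT and at 125, 128, 128 and 146 CPM in SOD1G93A-Lepob/+, without overlap and with a log2 fold change of 0.20 (SE 0.11).

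Mast cell genes were higher in SOD1G93A-Lepob/+, with little spread among its libraries for the granule proteases. The list of mast cells and granulocytes had 13 of 18 genes higher with medians of 0.38 and 0.50, and 4 of these, Cpa3, Cma1, Mcpt4 and Hdc, had a p under 0.05, against 1.22% of all genes. That count was 2 without replicate 3, 1 without WT 3 and 0 with the lymph node stroma level as a covariate. In the second comparison it was 1, Tpsab1, a mast cell tryptase chosen after its values were seen, against 1.11% of all genes. Cpa3, carboxypeptidase A of mast cell granules, was at 10.7, 18.5, 10.05 and 19.1 CPM in WT and at 22.3, 28, 27 and 29 CPM in SOD1G93A-Lepob/+. Cma1, mast cell chymase, was at 15.1, 27.4, 16.5 and 26.3 CPM in WT and at 33.6, 38.5, 37 and 37.9 CPM in SOD1G93A-Lepob/+. Mcpt4, another chymase chosen after its values were seen, was at 23.1, 31.5, 16.7 and 32.7 CPM in WT and at 40.8, 47, 47.7 and 43.8 CPM in SOD1G93A-Lepob/+. In all 3 the groups did not overlap, WT 1 and WT 3 were lowest, and the log2 fold change was 0.86 (SE 0.35), 0.79 (SE 0.34) and 0.79 (SE 0.35). For Cpa3 the single mutants overlapped both groups, at 7.23 to 24.3 CPM in Lepob/+ and 14.5 to 26.3 CPM in SOD1G93A. Hdc, which makes histamine, was at 2.93, 3.07, 2.53 and 2.91 CPM in WT and at 2.9, 4.65, 5.71 and 6.97 CPM in SOD1G93A-Lepob/+, with a log2 fold change of 0.82 (SE 0.30) and an overlap at SOD1G93A-Lepob/+ 1. Cxcr2, a chemokine receptor of neutrophils, was at 2.87, 2.05, 0.181 and 0.132 CPM in WT and at 0 in SOD1G93A-Lepob/+, at least 72.5-fold lower with the floor of 3 counts over the group, and its level in WT moved with the lymph node RNA of WT 1 and WT 2.

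The promoter window of Cpa3, from 250 bases before to 50 bases after the start (chr3:20242132-20242431, minus strand, RefSeq on GRCm38.p6), is shown because Cpa3 is one of 3 proteases whose groups did not overlap and because GATA factors are known regulators of mast cell genes. The capitals mark its match to AGATAA, the only form of the GATA motif that was searched.
Cpa3 promoter: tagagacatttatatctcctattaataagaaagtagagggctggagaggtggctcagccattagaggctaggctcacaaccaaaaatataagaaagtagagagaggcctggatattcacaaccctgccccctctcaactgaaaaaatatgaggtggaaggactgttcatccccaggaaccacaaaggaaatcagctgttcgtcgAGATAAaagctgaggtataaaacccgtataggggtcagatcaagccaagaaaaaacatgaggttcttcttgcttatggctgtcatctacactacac
Both strands were searched, as AGATAA or TTATCT, and GATA with other bases beside it was not counted. These letters were found once in the Cpa3 window, and in none of the same windows of Cma1, Mcpt4, Hdc and Mrgprb1, while 11.2% of 32851 RefSeq promoter windows of this length hold them. Each of those other windows holds GATA or its reverse TATC with other bases beside it. The E-box letters CATGTG or CACATG, also searched, were in none of these windows, against 14.2% of all promoter windows. A match is not evidence of binding, and no match says only that these letters are not in the window.

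**Figure D5:**
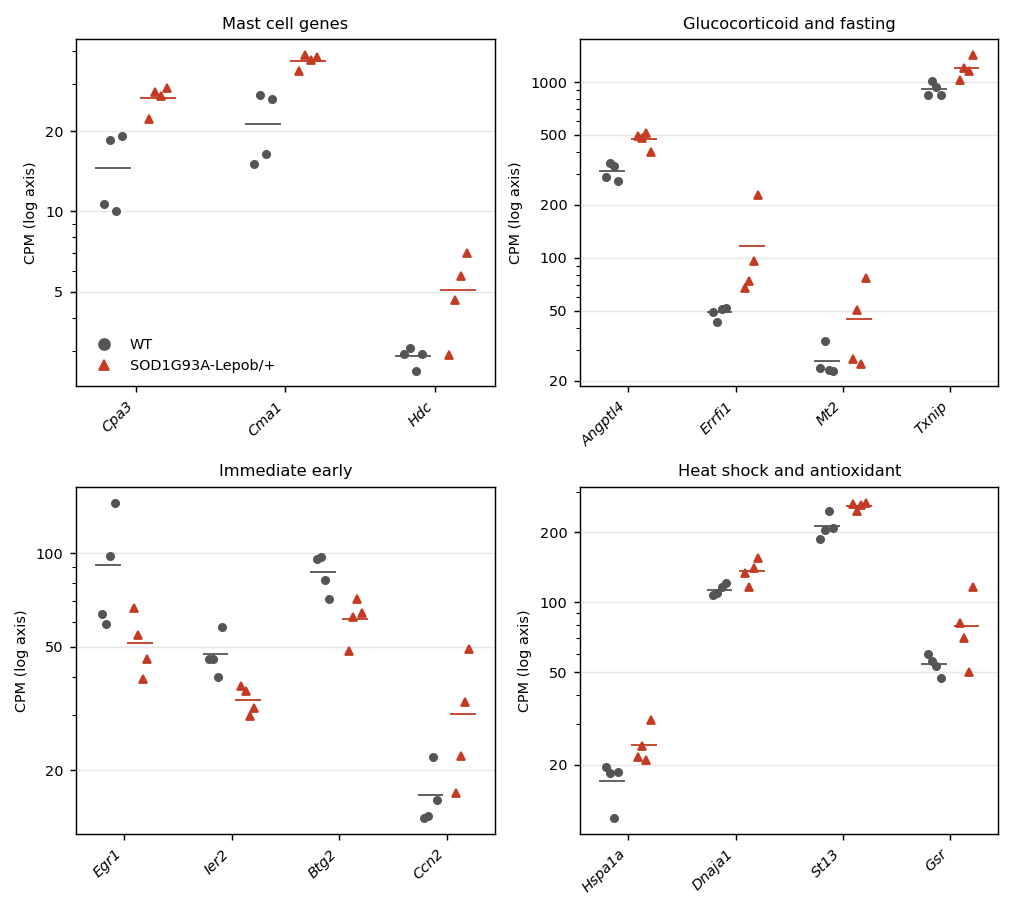
CPM (y axes, log scale) of genes of 4 classes in the 4 WT libraries (grey circles) and the 4 SOD1G93A-Lepob/+ libraries (red triangles), with bars at the group means. Cpa3, Cma1, Angptl4, Errfi1, Txnip, Ier2, Btg2, Hspa1a and St13 separate the groups, while Egr1, Ccn2, Gsr, Dnaja1, Mt2 and Hdc overlap.

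Macrophage lists were higher against all WT and near 0 against WT 3 and WT 4. Resident macrophage genes had 18 of 21 higher with a median of 0.19 and then 12 with a median of 0.015; WT 1 and WT 3 had low and WT 2 and WT 4 high levels. Without WT 3 the median against all WT was 0.0027, with 11 of 21 higher. Lyve1, a hyaluronan receptor of resident macrophages and lymphatic vessels, was at 23.4, 82.9, 17.1 and 99.6 CPM in WT and at 123, 109, 94.8 and 143 CPM in SOD1G93A-Lepob/+. Cx3cr1, the fractalkine receptor, was at 7.1, 6.33, 3.05 and 2.96 CPM in WT and at 2.13, 2.85, 2.61 and 1.04 CPM in SOD1G93A-Lepob/+ and did not overlap. Lipid-associated macrophage genes had 15 of 20 higher with a median of 0.15. Mmp12, macrophage elastase, was at 1.05, 1.87, 1.39 and 1.9 CPM in WT and at 1.62, 2.5, 21.7 and 1.74 CPM in SOD1G93A-Lepob/+, and its log2 fold change of 2.15 (SE 0.71) became 0.33 without replicate 3. Cd9, a tetraspanin of these macrophages and of many other cells, was at 96.1, 111, 90.7 and 102 CPM in WT and at 121, 136, 93.5 and 166 CPM in SOD1G93A-Lepob/+, with a log2 fold change of 0.37 (SE 0.17). Inflammatory cytokines had 17 of 31 higher and 0.013. Ccl5, a chemokine made by T cells, was at 130.4, 106, 6.77 and 4.42 CPM in WT and at 5.58, 4.17, 3.79 and 3.71 CPM in SOD1G93A-Lepob/+, high only in the WT libraries with lymph node RNA, while Cxcl1, which attracts neutrophils, was at 1.38, 1.39, 1.01 and 2.04 CPM in WT and at 0.753, 0.824, 1.36 and 0.702 CPM in SOD1G93A-Lepob/+.

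Dendritic cell and MHC class II genes had the lowest median of the lists apart from muscle, -0.76 with 1 of 16 higher, and 5 were lower with a p under 0.05, against 3.52% of all genes. These were Flt3, Xcr1, Clec9a, Batf3 and Irf8, the last chosen after its values were seen. With WT 3 and WT 4 the median was -0.51, 0 of 16 were higher, and 1, Batf3, had a p under 0.05, against 0.831% of all genes. The count against all WT was 8 without WT 3, 4 without replicate 3 and 2 with the lymph node stroma level as a covariate. Flt3, the receptor that maintains dendritic cells, was at 22.6, 19, 2.61 and 2.72 CPM in WT and at 1.55, 1.6, 2.36 and 1.94 CPM in SOD1G93A-Lepob/+. Xcr1, the receptor that marks cross-presenting dendritic cells, was at 4.73, 3.96, 1.91 and 1.27 CPM in WT and at 0.708, 0.749, 0.612 and 0.562 CPM in SOD1G93A-Lepob/+. Batf3, the transcription factor of those cells, was at 6.44, 7.51, 7.0 and 11.8 CPM in WT and at 4.58, 6.75, 4.13 and 3.45 CPM in SOD1G93A-Lepob/+, with a log2 fold change of -0.79 (SE 0.29) and -0.99 (SE 0.36). Flt3 and Xcr1 did not overlap, and both were high in WT 1 and WT 2 together with the summed T cell level. H2-Ab1, a chain of MHC class II chosen after its values were seen, was at 605, 737, 482 and 931 CPM in WT and at 454, 482, 568 and 437 CPM in SOD1G93A-Lepob/+, with overlapping groups. With the lymph node stroma level as a covariate the median of the list was -0.30.

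Interferon response genes were higher in 26 of 33 with a median of 0.33, and in 27 of 33 with a median of 0.35 against WT 3 and WT 4. Oasl1, an antiviral sensor-like protein, was at 7.96, 11.8, 3.07 and 11.8 CPM in WT and at 19.99, 29.1, 11.1 and 16.2 CPM in SOD1G93A-Lepob/+. Isg15, a ubiquitin-like modifier chosen after its values were seen, was at 12.3, 25.4, 13.5 and 23 CPM in WT and at 39.8, 53.9, 18.9 and 20.6 CPM in SOD1G93A-Lepob/+. Both were highest in SOD1G93A-Lepob/+ 1 and 2, and the groups overlapped. Irf1, a transcription factor induced by interferon gamma, was at 139, 64.9, 50.3 and 46.6 CPM in WT and at 40.2, 44.1, 42.4 and 52.1 CPM in SOD1G93A-Lepob/+, with WT 1 far above the rest. It was the only gene of the list with a p under 0.05, in the lower direction, against 3.52% of all genes.

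Medians of vessel and nerve genes differed with the choice of WT libraries. Blood vessel endothelium had 21 of 22 genes higher with a median of 0.26 against all WT, 0.14 without replicate 3 and 0.48 without WT 3, and 13 with a median of 0.029 against WT 3 and WT 4. Mural and smooth muscle genes had 0.17 and 0.059 (0.069 and -0.026 without replicate 3, 0.31 for the first without WT 3), and nerve and Schwann cell genes 0.20 and -0.12. None of these 3 lists held a gene with a p under 0.05 in either comparison with all its libraries. Lymphatic endothelium had 4 of 9 higher and -0.24 (-0.16 without replicate 3 and -0.011 without WT 3). Foxc2, a transcription factor of lymphatic valves, was at 0.227, 0.615, 0.697 and 1.14 CPM in WT and at 0.421, 0.30, 0.476 and 0.393 CPM in SOD1G93A-Lepob/+, with a log2 fold change of -1.20 (SE 0.40) against WT 3 and WT 4 (nominal, adjusted p = 1).

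Mammary epithelium is part of this fat pad in females, and its list had 17 of 23 genes higher with a median of 0.31 against all WT and 22 with a median of 0.68 against WT 3 and WT 4. Without replicate 3, whose level was the lowest of the 8, the medians were 0.51 and 0.95. Without WT 3 the median against all WT was 0.16, with 14 of 23 higher. Epcam, an epithelial adhesion molecule, was at 107, 106, 56 and 70.6 CPM in WT and at 123, 136, 58.5 and 165 CPM in SOD1G93A-Lepob/+. Cdh1, the cadherin of epithelia, was at 91.1, 92, 48.9 and 55.5 CPM in WT and at 91.6, 102, 52.3 and 141 CPM in SOD1G93A-Lepob/+. Elf5, the transcription factor of milk-forming cells, was at 18.8, 11.3, 7.57 and 6.35 CPM in WT and at 22.5, 18.5, 4.35 and 32.2 CPM in SOD1G93A-Lepob/+. In each of them replicate 4 was the highest and replicate 3 at or near the lowest, and with WT 3 and WT 4 the log2 fold change was 0.93 (SE 0.34) for Epcam (nominal, adjusted p = 1) and 0.89 (SE 0.39) for Cdh1 (nominal, adjusted p = 1). Skeletal muscle genes had a median of -3.66 with WT 3 and 0.96 without it. Tnnt3, troponin T of fast fibres, was at 1.32, 0.842, 382 and 1.27 CPM in WT and at 12.6, 0.475, 0.816 and 0.618 CPM in SOD1G93A-Lepob/+. Red blood cell genes had 0.041 and 0.29 over 5 genes.

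Genes of general cell machinery differed by small amounts. Cytosolic ribosomal protein genes had 1 of 80 higher with a median of -0.26 against all WT and 12 with a median of -0.075 against WT 3 and WT 4. Rpl36, a protein of the large subunit, was at 240.1, 222, 191 and 219.7 CPM in WT and at 177, 189.9, 177 and 174 CPM in SOD1G93A-Lepob/+, without overlap. Cell cycle genes had 2 of 31 higher with a median of -0.33, -0.61 without replicate 3, and 16 with a median of 0 against WT 3 and WT 4. Splicing factors had 17 of 52 higher with a median of -0.043, and 43 with a median of 0.092 in the second comparison, where Luc7l3, a component of the spliceosome, had a log2 fold change of 0.65 (SE 0.29, nominal, adjusted p = 1). Luc7l3 was at 79, 69.7, 50.3 and 57.5 CPM in WT and at 96.8, 67, 87.6 and 87.5 CPM in SOD1G93A-Lepob/+. Among WT libraries the ribosomal and cell cycle lists were highest in WT 1 and WT 2, which held lymph node RNA. With the lymph node stroma level as a covariate their medians were -0.041 and 0.16. The cell cycle list had a mean log2 CPM of 2.98 and 3.11 in WT 1 and WT 2. It had 3.05 in SOD1G93A-Lepob/+ 3 and 3.09 in Lepob/+ 2, where the T cell list had means of -0.28 and -0.38. The cause was not tested.

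Respiratory chain genes differed by genome in both comparisons, but the nuclear side depended on WT 3. The 13 mitochondrially encoded genes were all higher in both comparisons, with medians of 0.32 and 0.28, none had a p under 0.05, and 2 lay above all WT without overlap, against 1.98% of all genes. mt-Nd5, a subunit of complex I, was at 2766, 2328, 3178 and 2857 CPM in WT and at 3815, 3592, 3647 and 3701 CPM in SOD1G93A-Lepob/+. mt-Nd4l, another complex I subunit, was at 649, 528, 650.4 and 535 CPM in WT and at 814, 772, 659.7 and 792 CPM in SOD1G93A-Lepob/+. Both separated the groups, mt-Nd4l narrowly. The mean log2 CPM of the mitochondrially encoded list was 10.5 to 10.9 in WT, and SOD1G93A-Lepob/+ 3, at 10.7, lay inside that range. Nuclear genes of oxidative phosphorylation had 13 of 76 higher with a median of -0.080 against all WT and 1 with a median of -0.26 against WT 3 and WT 4. Cox5b, a subunit of complex IV, was at 114, 91.8, 165 and 122 CPM in WT and at 113, 92.1, 99.2 and 121 CPM in SOD1G93A-Lepob/+, with a log2 fold change of -0.43 (SE 0.24) in the second comparison. WT 3, which held muscle RNA, was the highest library for Cox5b. Without WT 3, 62 of 76 nuclear genes were higher against the other WT libraries, with a median of 0.085. The mitochondrially encoded genes then had 13 of 13 higher and a median of 0.40.

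Aqp5, Gm128 and Gm4613 are not genes of lymphocytes, and the study names them as lower in iWAT of Lepob/+ than of WT, which is another comparison. Here they had overlapping groups or few counts. Aqp5, a water channel of glands, was at 54.9, 29.8, 79.4 and 62.1 CPM in WT and at 57.9, 31.9, 13.9 and 80.8 CPM in SOD1G93A-Lepob/+. Gm128, a predicted gene, was at 0.351, 0.205, 0.387 and 0.264 CPM in WT and at 0, 0.40, 0 and 0.393 CPM in SOD1G93A-Lepob/+. Gm4613, a processed pseudogene, was at 1.94, 0, 1.55 and 1.38 CPM in WT and at 0 in all SOD1G93A-Lepob/+ libraries, but also at 0 in WT 2, and was at least 67.4-fold lower with the floor of 3 counts over the group. DESeq2 called Gm4613 lower on the 6 libraries of the second comparison (adjusted p = 4.98e-08) but not on the 8.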

How the data were processed

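Total RNA of iWAT was sequenced by the authors with 4 libraries per genotype. Per the study's methods, reads were trimmed with fastp, aligned to mm10 with HISAT2 2.1.0 and summarised per gene with featureCounts 2.0.2, versions being those in the submitters' processing notes. The deposited values are raw counts per gene for 54752 gene identifiers, of which 54723 were matched to GENCODE M21 (GRCm38). The kit is named differently in the labels and in the methods, and the strand setting and annotation release are not given in the sources used here, so reads of overlapping and antisense genes may not be told apart.

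Groups were taken from the labels. Genes were kept with edgeR 4.0.16 (R 4.3.3; minimum count 10, minimum total count 15), scaled by the trimmed mean of M-values and tested by the quasi-likelihood test over all 16 libraries with Benjamini-Hochberg adjustment and a threshold of 0.05, in a model with 1 mean per genotype. The second comparison was fitted on the 14 libraries other than WT 1 and WT 2. Fits were tested on simulated data. The p-values set the difference between groups against the spread of libraries within genotypes, estimated over all genotypes in the fit. The study gives the libraries as mice. Alternatives were DESeq2 1.42.0, limma 3.58.1 (voom), other scalings and filters, a lymph node stroma covariate, a replicate block and leaving out libraries. Samples were not treated as paired by replicate number. Correlations of same-numbered deviations were 0.03, 0.25, 0.08 and -0.07. They were not set against those of other pairs of libraries, so they cannot exclude pairing.

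The members and the 37 functional lists were chosen with earlier results of these data known. Named genes were those past the threshold, the 10 higher and 10 lower genes described above, up to 4 genes of each list with the smallest p (of which those with a p under 0.05, no overlap or a defining role are described), and genes outside lymphocytes that the study names for iWAT. A gene outside these is marked as chosen after its values were seen. Promoter and microRNA sequences are from RefSeq. The floors cover counting error only.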

Additional observations from a re-analysis of the deposited data

Results flagged for a closer look

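Of 256 groups of 4 libraries examined for the lists and genes named, 20 held a library far from the other 3 by Dixon's ratio, where chance flags about 1 in 20. In WT 3, the mean log2 CPM was 6.49 for mural and 5.84 for skeletal muscle genes, Tnnt3 was at 382 CPM, Cyp51 at 37.7 CPM and Hspa1a was lowest at 11.7 CPM. In WT 4, Pcdhga1 was at 41.5 CPM and Fos at 109 CPM, and Adora2a was lowest at 17.1 CPM. In WT 2, Mt2 was at 33.7 CPM. In SOD1G93A-Lepob/+ 1, skeletal muscle genes had a mean log2 CPM of 2.49, Tnnt3 was at 12.6 CPM, Itgav at 34.7 CPM and Arl13b was lowest at 15 CPM. In SOD1G93A-Lepob/+ 2, the adipokine list was lowest with a mean log2 CPM of 6.7 and Scd2 was lowest at 143 CPM. In the library labelled SOD1G93A-Lepob/+ replicate 3, whose Xist and Y chromosome counts go against its label, Lep was at 1843 CPM, Ucp1 at 27.9 CPM and Mmp12 at 21.7 CPM. In SOD1G93A-Lepob/+ 4, Fkbp5 was at 76.7 CPM and Dnajc3 at 145.8 CPM.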

How the results depend on the processing

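No gene passed an adjusted p of 0.05 by edgeR in either comparison with other scaling factors, another filter or none, or the replicate block. Against all WT, the number with an adjusted p under 0.05 was 2 with edgeR on the 8 libraries, 353 with DESeq2 on these, 45 with DESeq2 on all 16, 2 with limma voom and 2 without WT 3 and SOD1G93A-Lepob/+ 3 together, and 0 to 2 when 1 library was left out. The number with an unadjusted p under 0.05 was 1678, 2039 and 3515 with edgeR and DESeq2 on the 8 libraries and with voom, and 429 to 1429 when 1 library was left out. Against WT 3 and WT 4 the adjusted count was 2 with edgeR and 65 with DESeq2 on the 6 libraries and 0 to 6 when 1 library was left out. The unadjusted count there was 608 without a filter, 864 and 1043 with edgeR and DESeq2 on the 6 libraries, 814 with voom, and 310 to 565 when 1 library was left out.

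The replicate block, for numbers not known to pair the samples, gave 534 genes with an unadjusted p under 0.05 against all WT and 310 against WT 3 and WT 4. The share of such genes that were higher against all WT was 25.7%, and it was 41.8% with the block, 41.4% with voom and 59.6% with the lymph node stroma covariate. That covariate changed the sign of 15 of 37 list medians, leaving out WT 3 that of 20 of 74 and leaving out SOD1G93A-Lepob/+ 3 that of 10 of 74. The cause was not tested.

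Against all WT, the genes that changed direction, among those with values by library above other than Aqp5, Gm128, Gm4613, Gm4149 and Ptp4a1, which were not recomputed, with their reported log2 fold change in brackets, were as follows. Ucp1 (1.82) was at -0.57 with the block, -0.63 with voom, -0.66 without WT 3 and SOD1G93A-Lepob/+ 3 together and -0.58 to 2.23 when 1 library was left out (opposite sign without SOD1G93A-Lepob/+ 3). Lepr (-0.017) was at 0.084 with the block, 0.66 with the covariate and -0.25 to 0.34 when 1 library was left out (opposite sign without WT 1, WT 2, SOD1G93A-Lepob/+ 1, SOD1G93A-Lepob/+ 3). Tnnt3 (-4.73) was at 0.29 with voom, 1.99 without WT 3 and SOD1G93A-Lepob/+ 3 together and -7.23 to 1.66 when 1 library was left out (opposite sign without WT 3). Scd1 (-0.21) was at 0.065 with voom, 0.19 without WT 3 and SOD1G93A-Lepob/+ 3 together and -0.39 to 0.069 when 1 library was left out (opposite sign without WT 3). Scd2 (-0.39) was at 0.21 with voom. Slc7a11 (-3.76) was at 0.55 with the covariate. Fos (-0.86) was at -1.09 to 0.14 when 1 library was left out (opposite sign without WT 4).

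Against WT 3 and WT 4, those of the same genes that changed direction, with their reported log2 fold change in brackets, were as follows. Ccl5 (-0.37) was at 0.27 with the block. Ucp1 (1.65) was at -0.90 with voom and -0.75 to 2.07 when 1 library was left out (opposite sign without SOD1G93A-Lepob/+ 3). Slc7a11 (0.84) was at -0.34 with voom. Ypel5 (-1.0001) was at -1.60 to 0.040 when 1 library was left out (opposite sign without WT 3). Adora2a (-0.33) was at -0.62 to 0.031 when 1 library was left out (opposite sign without WT 3). Tnnt3 (-5.72) was at -8.23 to 1.51 when 1 library was left out (opposite sign without WT 3). Scd1 (-0.45) was at -0.81 to 0.025 when 1 library was left out (opposite sign without WT 3). Col1a1 (0.13) was at -0.28 to 0.70 when 1 library was left out (opposite sign without WT 3, SOD1G93A-Lepob/+ 3). Col3a1 (0.38) was at -0.0054 to 0.90 when 1 library was left out (opposite sign without WT 3). Fabp4 (0.25) was at -0.075 to 0.67 when 1 library was left out (opposite sign without WT 4). Cd36 (0.18) was at -0.070 to 0.49 when 1 library was left out (opposite sign without WT 4). Fos (-1.45) was at -2.19 to 0.14 when 1 library was left out (opposite sign without WT 4). H2-Ab1 (-0.54) was at -0.94 to 0.0084 when 1 library was left out (opposite sign without WT 4). Lep (0.48) was at -0.12 to 0.66 when 1 library was left out (opposite sign without SOD1G93A-Lepob/+ 3).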
